A study of Mus musculus with 4 samples.

Results

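Fasn, the gene of fatty acid synthase, and 9 genes that act with it in making fatty acids were followed in adult mouse kidney. The members were chosen by name, 10 genes of 54232 in the deposited table, each matching a single row. Fasn was picked because it was higher in the heterozygotes in these same libraries, and the others because of their place in the pathway. The authors' deposited table is a cut list of 97 genes, whose largest adjusted p in their own comparison is 0.0997. It holds Fasn at a log2 fold change of 0.94 and none of the other 9. The difference of Fasn between the genotypes is therefore a description here and carries no test.

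Mice with 1 LacZ allele of Tshz3 (Tshz3+/LacZ, here HET) were set against wild types (WT), all at 60 days of age. Tshz3 encodes a teashirt zinc-finger protein. The 2 libraries of each genotype were made from pooled kidneys, 3 to a group by the labels. Sex, strain, the make-up of the allele and the overlap of kidneys between pools stay unstated in the sources used here. The p-values therefore measure only how far pools differ, which may be in part technical. Pools of the same genotype also differed in sex-linked transcripts, as given below. Reads recovered from the deposited values numbered 62631750 and 70792042 in HET replicates 1 and 2 and 70319173 and 70717617 in WT replicates 1 and 2.

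The mutated gene itself, Tshz3, had higher levels in both libraries labelled HET, at 0.833 and 0.760 scaled TPM there (transcript abundance per length and depth) and 0.653 and 0.723 scaled TPM in WT. Its log2 fold change was 0.13, with a 95% interval from -0.29 to 0.54, while a halved level would give -0.49. The level therefore does not check the labels, and below HET stands for the libraries labelled HET, with every direction as labelled. All 9 kidney segment markers were detected, from Nphs1 of podocytes (10.3 to 15.8 scaled TPM) to Umod of the thick ascending limb (2001 to 2730 scaled TPM).

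Fatty acids are built in the cytosol from acetyl-CoA, which ATP citrate lyase releases from citrate. Acetyl-CoA carboxylase turns it into malonyl-CoA, and fatty acid synthase joins the carbon units into palmitate with reducing power from NADPH, part of it made by malic enzyme. Elongases and stearoyl-CoA desaturases then lengthen the chain and set a double bond. The transcription factor SREBP-1, encoded by Srebf1, is known to raise transcription of most of these genes. The pathway is strongest in liver and in fat, and fat tissue lies against the kidney.

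Of the 10 genes, 9 had higher levels in both libraries labelled HET than in both WT libraries, and Me1, the gene of cytosolic malic enzyme, had lower levels in both. Fasn had 60.5 and 76.6 scaled TPM in HET and 28.3 and 34.3 scaled TPM in WT. Its HET mean was 2.19 times its WT mean. The median log2 fold change was 0.70 over the 10 genes and 0.68 without Fasn, against 0.0067 over all 22356 genes tested. Both HET libraries were above both WT libraries for 21.8% of all genes tested and below them for 23.1%, and 51.1% of all genes had a log2 fold change above 0. Fasn was chosen on this comparison, so nothing is read from these shares. None of the other 9 genes passed the limma test at an adjusted p below 0.1, where 0.00895% of all tested genes (2 of 22356) did, 0.00447% higher and 0.00447% lower. At an unadjusted limma p under 0.05 there were 2 of the 9, Acaca and Acacb, both higher, where 3.81% of all genes were higher at that threshold. With limma-voom on the recovered reads 0 of the 9 were called (0% of all genes), and 3 of the 9 (Acaca, Acacb and Scd2) were higher at an unadjusted p under 0.05, against 4.44% of all genes. The median of the 10 genes was 0.38 without WT replicate 1. In bulk kidney, more cells of a type and more RNA per cell cannot be told apart.

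**Figure D1:**
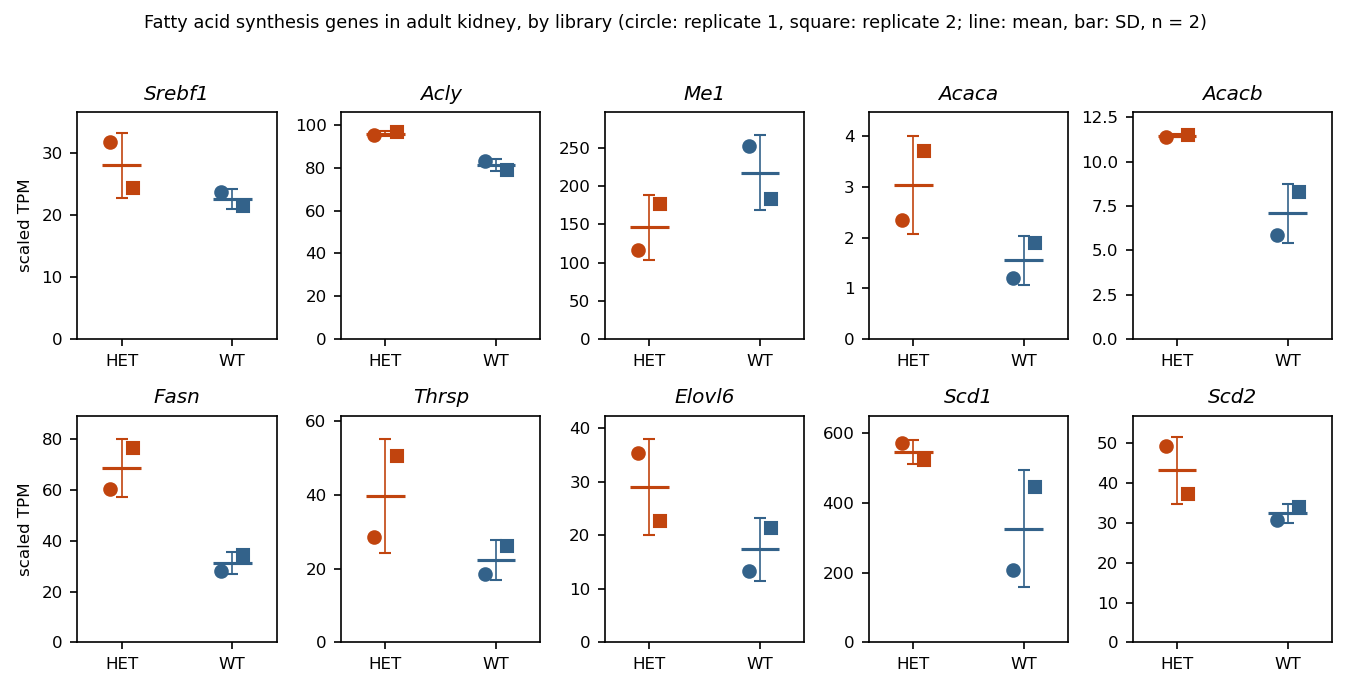
Levels of the 10 genes in each library, in scaled TPM on linear axes from 0, with the HET libraries left of the WT libraries, the mean as a line and the SD over n = 2 pools as a bar. The HET points lie above the WT points in every panel except that of Me1, where they lie below. For Fasn the values are 60.5 and 76.6 in HET and 28.3 and 34.3 in WT.

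Promoters of 8 of the 10 genes were found in the RefSeq set (GRCm38.p6, 250 bases before to 50 after a transcript start, 11 windows in all). Scd1 and Scd2 had no entry. Those of Fasn (chr11:120824498-120824797, minus strand), of Thrsp (chr7:97417501-97417800, minus strand) and of Me1 (chr9:86695865-86696164, minus strand, 1 of its 2 windows) are shown because Fasn and Thrsp had higher levels in HET and Me1 lower ones. Capitals mark matches to the NF-Y box CCAAT or the Sp1 box GGGCGG on either strand.
Fasn: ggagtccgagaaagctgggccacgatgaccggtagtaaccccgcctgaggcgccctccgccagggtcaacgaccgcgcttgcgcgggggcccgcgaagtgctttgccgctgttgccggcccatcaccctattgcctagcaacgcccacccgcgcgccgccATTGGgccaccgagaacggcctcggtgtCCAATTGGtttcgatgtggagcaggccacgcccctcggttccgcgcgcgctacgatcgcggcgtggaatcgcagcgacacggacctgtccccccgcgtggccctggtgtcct
Thrsp: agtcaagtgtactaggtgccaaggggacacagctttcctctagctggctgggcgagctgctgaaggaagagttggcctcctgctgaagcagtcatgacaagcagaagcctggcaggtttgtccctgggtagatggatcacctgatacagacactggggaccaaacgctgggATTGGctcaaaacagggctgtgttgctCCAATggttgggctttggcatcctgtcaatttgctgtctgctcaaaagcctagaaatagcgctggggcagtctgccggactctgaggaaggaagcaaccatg
Me1: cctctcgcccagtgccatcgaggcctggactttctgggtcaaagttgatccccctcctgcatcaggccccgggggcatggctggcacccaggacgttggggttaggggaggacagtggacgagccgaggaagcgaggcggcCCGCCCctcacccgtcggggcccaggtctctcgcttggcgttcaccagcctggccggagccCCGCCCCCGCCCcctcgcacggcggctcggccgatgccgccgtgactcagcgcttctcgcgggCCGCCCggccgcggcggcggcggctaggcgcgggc
Fasn held 3 NF-Y boxes, 2 of them overlapping, and no Sp1 box. Thrsp held 2 NF-Y boxes and no Sp1 box, while this Me1 window held 4 Sp1 boxes and no NF-Y box. The kinds of box did not part the higher genes from Me1, since the other Me1 window (chr9:86687228-86687527) held an NF-Y box and no Sp1 box, and Acly and Srebf1 held Sp1 boxes as well. A CCAAT was present in 6 of the 8 genes and a GGGCGG in 3 of the 8, and 37.4% and 35.7% of all 32851 promoters held them. A gene was counted if any of its windows matched, while the shares are of single windows, so the gene counts are not comparable with them. The only windows of Acaca (chr11:84195188-84195487) and Acacb (chr5:114165268-114165567) lie inside these genes, which start at 84129672 and 114146535 (plus strand). Promoters at those 2 gene starts were not scanned, and the counts do not cover them. The SREBP element TCACNCCAC, found in 1.24% of all promoters, and the E-box CACGTG, found in 7.15%, matched in 0 of the 8 genes. No match to a motif overlapped a match to another motif in these windows. These matches describe the letters in the windows and say nothing of binding.

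Srebf1 (ENSMUSG00000020538, chromosome 11, 60199089 to 60222581, mm10) had 31.8 and 24.3 scaled TPM in HET and 23.7 and 21.4 scaled TPM in WT. HET replicate 1 stood out, and HET replicate 2 was 1.03 times the higher WT library. On the log2 scale Srebf1 was 0.30 ± 0.17 higher in HET (SE), at a limma adjusted p of 0.622. It was 0.11 without HET replicate 1, 0.49 without HET replicate 2 and 0.55 without scaling of the TPM. The table gives all exons of the gene together, so the SREBP-1a and SREBP-1c transcripts cannot be told apart. Srebf1 shares 3.11% of its exon bases with other genes, the most of any of the 10.

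Acly, the gene of ATP citrate lyase (ENSMUSG00000020917, chromosome 11, 100476353 to 100528000), had 95.1 and 96.8 scaled TPM in HET and 83.0 and 79.1 scaled TPM in WT. The groups did not overlap and the libraries of each genotype lay close together. This was the smallest difference among the 10 genes, at 0.24 ± 0.14 log2 units (SE) and a limma adjusted p of 0.623, and 0.50 log2 units on unscaled TPM. Fasn was at 0.636 and 0.791 times the Acly level in HET and at 0.340 and 0.433 times in WT, on the scaled TPM scale, which is per length.

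Me1 (ENSMUSG00000032418, chromosome 9, 86581371 to 86695953) had 116 and 176 scaled TPM in HET and 252 and 183 scaled TPM in WT. HET replicate 1 was lowest and WT replicate 1 highest, and the other two libraries lay 1.04-fold apart. Me1 had a log2 difference of -0.59 ± 0.27 (SE) at a limma adjusted p of 0.622, -0.29 without HET replicate 1 and -0.35 without WT replicate 1. Without scaling of the TPM the libraries of the genotypes overlapped.

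Both acetyl-CoA carboxylase genes were higher in HET. Acaca, which encodes the cytosolic enzyme (ENSMUSG00000020532, chromosome 11, 84129672 to 84401651), had 2.36 and 3.72 scaled TPM in HET and 1.20 and 1.90 scaled TPM in WT. These were the lowest levels of the 10 genes and rested on 1213 and 2222 reads in HET and 599 and 1043 reads in WT. With 599 reads the 95% Poisson interval was 552 to 649, which covers counting error only. The HET mean was 1.96 times the WT mean. After 0.5 TPM was added to each value, the log2 difference was 0.78 ± 0.27 (SE) at a limma adjusted p of 0.622. It was 0.50 without HET replicate 2. With 0.1 TPM added in place of 0.5 the difference was 0.93, and with 1 TPM it was 0.66.

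Acacb encodes the carboxylase of the mitochondrial surface, whose malonyl-CoA is known to restrain fatty acid oxidation (ENSMUSG00000042010, chromosome 5, 114146535 to 114250761). It had 11.4 and 11.5 scaled TPM in HET and 5.89 and 8.26 scaled TPM in WT. The HET libraries were 1.01-fold apart and the lower of them was 1.38 times the higher WT library. Acacb differed by 0.68 ± 0.18 log2 units (SE), with a 95% interval of 0.24 to 1.11 and a limma adjusted p of 0.622. Per length, Acacb was the more abundant of the carboxylases, at 4.84 and 3.10 times Acaca in HET and 4.90 and 4.35 times in WT.

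Fasn itself (ENSMUSG00000025153, chromosome 11, 120805846 to 120824547) averaged 68.5 ± 11.4 scaled TPM in HET and 31.3 ± 4.25 scaled TPM in WT (SD, n = 2 each), resting on 19943 and 29343 reads in HET and 9027 and 12075 reads in WT. The lower HET library was 1.76 times the higher WT library, the largest such ratio of the 9 genes that were higher. Fasn was chosen for its rise in these libraries, so nothing is read from that rank. The log2 fold change was 1.12, and 1.37 without scaling of the TPM. Without HET replicate 2 it was 0.95, and without HET replicate 1 it was 1.29. Fasn shares no exon base with another gene of the table.

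Thrsp encodes Spot 14, a small protein of lipogenic tissues that is known to act with the acetyl-CoA carboxylase regulator encoded by Mid1ip1 (ENSMUSG00000035686, chromosome 7, 97412938 to 97417730). It had 28.6 and 50.4 scaled TPM in HET and 18.5 and 26.1 scaled TPM in WT. HET replicate 2 stood well above the other libraries, and HET replicate 1 was 1.10 times the higher WT library. Thrsp differed by 0.78 ± 0.32 log2 units (SE) at a limma adjusted p of 0.622, 0.37 without HET replicate 2 and 1.18 without HET replicate 1.

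Elovl6 encodes the elongase that takes palmitate to stearate (ENSMUSG00000041220, chromosome 3, 129532355 to 129638495). It had 35.3 and 22.7 scaled TPM in HET and 13.3 and 21.5 scaled TPM in WT. HET replicate 2 and WT replicate 2 were 1.06-fold apart, so the separation of the groups was narrow. For Elovl6 the log2 difference was 0.73 ± 0.31 (SE) at a limma adjusted p of 0.622, 0.39 without WT replicate 1 and 0.42 without HET replicate 1.

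Scd1, the stearoyl-CoA desaturase gene with the highest level of the 10 (ENSMUSG00000037071, chromosome 19, 44394451 to 44407709), had 571 and 522 scaled TPM in HET and 207 and 446 scaled TPM in WT. WT replicate 1 lay far below the other 3 libraries, and WT replicate 2 was 2.15 times as high. Scd1 differed by 0.84 ± 0.37 log2 units (SE) at a limma adjusted p of 0.622, by 0.29 without WT replicate 1 and 1.38 without WT replicate 2. Scd2, its neighbour and paralog (ENSMUSG00000025203, chromosome 19, 44293676 to 44306864), had 49.2 and 37.3 scaled TPM in HET and 30.7 and 34.1 scaled TPM in WT. WT replicate 1 was the lowest library for Scd2 too, but WT replicate 2 was only 1.11 times as high. The level of Scd1 was 11.6 and 14.0 times that of Scd2 in HET and 6.75 and 13.1 times in WT. Scd2 differed by 0.40 ± 0.17 log2 units (SE) at a limma adjusted p of 0.622, 0.20 without HET replicate 1 and 0.65 without scaling of the TPM. How the authors treated reads that match several of these related genes, beyond alignments marked unique, stays unstated in the sources used here.

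**Figure D2:**
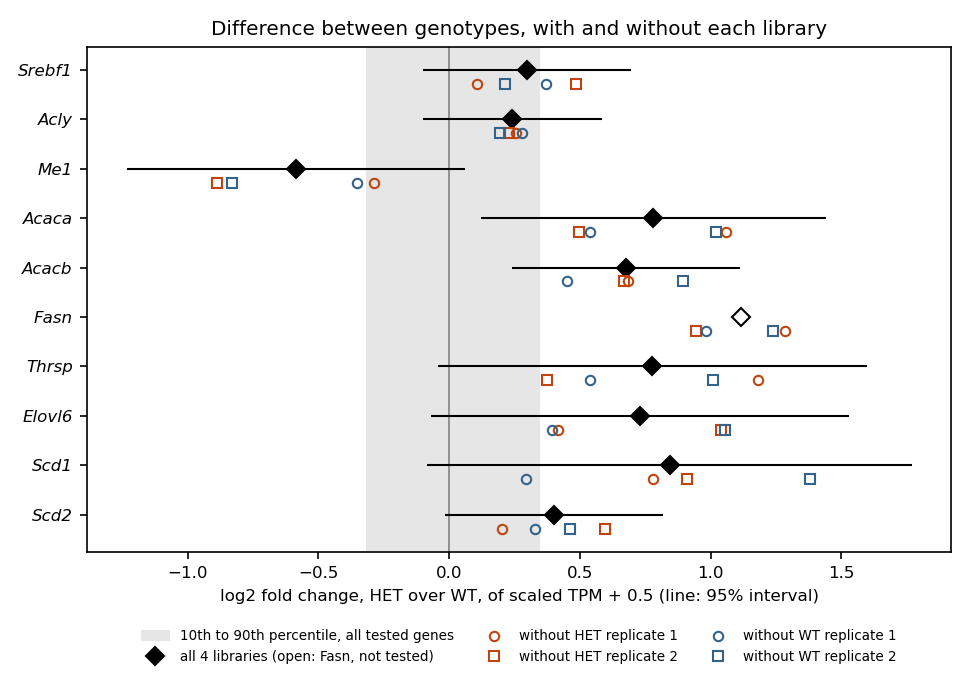
Log2 fold change of the 10 genes, HET over WT, on the scaled TPM + 0.5 scale, with the 95% interval of the limma fit (none for Fasn, which was not tested) and the value without each library in turn. The libraries of the genotypes do not overlap for any of the 10, which fixes the signs, and the largest shifts were those of Scd1 (0.29 without WT replicate 1, 1.38 without WT replicate 2).

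The genes differed in which HET library was higher. Of the 9 genes with higher levels in HET, HET replicate 2 was the highest library for 5 (Fasn, Acaca, Acacb, Acly and Thrsp) and HET replicate 1 for 4 (Scd1, Scd2, Elovl6 and Srebf1). For Acacb and Acly the HET libraries were nearly equal. WT replicate 1 was the lowest library for 7 of the 10 genes, and it was the lowest for 33.8% of all genes tested. Over the 4 libraries the profile of Acaca lay closest to that of Fasn among the other 9, at a Euclidean distance of 0.40 between centred log2 values. Thrsp (0.50) and Acacb (0.51) followed, and Me1 was farthest (1.79). Over all tested genes with a mean of at least 1 scaled TPM and a usual symbol, the 5 profiles closest to Fasn were those of Ciita (0.15), Tnfrsf18 (0.19), Lyz2 (0.22), Pik3ap1 (0.24) and Oas2 (0.24). Each is a likeness over 4 libraries only, to a gene chosen for its difference, so these genes share that difference by choice. Ciita (2.10 in HET, 0.773 in WT), Pik3ap1 (1.95 in HET, 0.787 in WT) and Oas2 (1.61 in HET, 0.647 in WT) had mean scaled TPM under 1 in WT and met the floor through HET.

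In order of mean level per length, Scd1 led in both genotypes, followed by Me1 and Acly. The ranges of Scd1 (207 to 446 scaled TPM) and Me1 (183 to 252) overlapped in WT, where Me1 was the higher of them in replicate 1. Fasn came next in HET, with its range of 60.5 to 76.6 scaled TPM clear of that of Scd2 (37.3 to 49.2). In WT the ranges of Scd2 (30.7 to 34.1) and Fasn (28.3 to 34.3) overlapped. The ranges of Srebf1, Thrsp and Elovl6 ran into one another in both genotypes. Acacb and Acaca were the lowest of the 10 in each genotype.

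Of 66 other genes of lipid synthesis and its control 65 were tested, all but the elongase gene Elovl3, which was at or below 0.0832 scaled TPM. Their median log2 fold change was -0.098, with 22 above 0 and 43 below. Without scaling of the TPM, which moved the median of all genes to 0.20, it was 0.15, with 55 above 0 and 10 below. It was -0.037 without WT replicate 1, -0.19 without WT replicate 2 and -0.053 without HET replicate 2. None passed the limma test (smallest adjusted p = 0.622), and limma-voom called 0. At an unadjusted p under 0.05 limma had 3 higher (Scd3, Me2 and Insig1) and 2 lower (Mlx and Mlycd), where 3.81% of all genes were higher and 3.46% lower. Limma-voom had the same 5 and Pcx, which was lower, where 4.44% and 3.48% of all genes were. Both HET libraries were above both WT libraries for 10.8% of the 65 and below them for 35.4%, against 21.8% and 23.1% of all genes. Without scaling of the TPM 34 of the 65 were above and 2 below, but the median of all genes was then also higher, at 0.20. The median of the 65 minus that of all genes was -0.052 in that setting and -0.10 with scaling. No share of all genes is given for the unscaled setting, so nothing is read from its counts.

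Among 18 regulators 4 had a log2 fold change above 0 and 14 below, with a median of -0.15 (0.10 on unscaled TPM, -0.069 without WT replicate 1, -0.23 without WT replicate 2). Insig1 encodes an endoplasmic reticulum anchor of the SREBP escort protein and is itself a known SREBP target. It had 19.9 and 18.9 scaled TPM in HET and 16.2 and 12.4 scaled TPM in WT (log2 fold change 0.44, limma adjusted p = 0.622). The difference of Insig1 was 0.24 without WT replicate 2 and 0.69 on unscaled TPM. Srebf2, the gene of the sterol-responsive SREBP-2, averaged 29.3 ± 3.42 scaled TPM in HET and 27.1 ± 0.560 scaled TPM in WT (SD, n = 2). Mlxipl, which encodes the glucose-responsive factor ChREBP, had 39.5 and 38.1 scaled TPM in HET and 53.2 and 37.0 scaled TPM in WT. Its partner gene Mlx had 50.8 and 56.6 scaled TPM in HET and 78.2 and 65.6 scaled TPM in WT (log2 fold change -0.41, or -0.16 on unscaled TPM; limma adjusted p = 0.622). Mlycd, whose product breaks down malonyl-CoA, had 40.1 and 41.0 scaled TPM in HET and 58.8 and 48.9 scaled TPM in WT (log2 fold change -0.40, or -0.15 on unscaled TPM; limma adjusted p = 0.622). Mid1ip1 was at 36.0 and 24.5 scaled TPM in HET and 36.0 and 30.6 scaled TPM in WT, so the groups overlapped.

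Of 10 genes for acetyl-CoA and NADPH supply 3 had a log2 fold change above 0 and 7 below (median -0.14, 0.11 on unscaled TPM, -0.023 without WT replicate 1, -0.25 without WT replicate 2). Slc25a1, the mitochondrial citrate carrier gene, had 120 and 123 scaled TPM in HET and 145 and 119 scaled TPM in WT. Me2, a mitochondrial malic enzyme gene, had 11.0 and 9.15 scaled TPM in HET and 6.33 and 8.21 scaled TPM in WT, the reverse order of Me1. Pcx, the pyruvate carboxylase gene, had 192 and 223 scaled TPM in HET and 300.5 and 256 scaled TPM in WT. Mdh1, the cytosolic malate dehydrogenase gene, averaged 847 ± 56.5 scaled TPM in HET and 1036 ± 129 scaled TPM in WT (SD, n = 2).

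The other elongation and desaturation genes had a median log2 fold change of -0.071 over 15 tested, or 0.14 without scaling of the TPM. That median was 0.089 without HET replicate 2, -0.032 without WT replicate 1, -0.14 without WT replicate 2 and -0.16 without HET replicate 1. Scd3 lies with Scd1 and Scd2 in a desaturase cluster and had 0.325 and 0.321 scaled TPM in HET and 0.0889 and 0.206 scaled TPM in WT, far below both neighbours, and how reads shared by these paralogs were counted is uncertain. Fads1, a delta-5 desaturase gene, had 86.9 and 71.5 scaled TPM in HET and 64.1 and 72.5 scaled TPM in WT. Fads2, the delta-6 desaturase gene, averaged 122 ± 13.5 scaled TPM in HET and 132 ± 0.748 scaled TPM in WT, and Elovl5 46.3 ± 4.86 and 44.5 ± 3.94 scaled TPM in the same order (SD, n = 2). Hacd2 and Hsd17b12, whose products work in the elongation cycle, had log2 fold changes of -0.38 and -0.29 (limma adjusted p = 0.622 each). On unscaled TPM these were -0.13 for Hacd2 and -0.034 for Hsd17b12, and Hacd2 was at -0.14 without HET replicate 1 and -0.61 without HET replicate 2.

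Fatty acid activation and glycerolipid genes had a median log2 fold change of 0.037 over 16 genes (0.29 without scaling of the TPM), from -0.24 (Agpat3, 0.015 on unscaled TPM) to 0.26 (Acsl1, -0.033 without WT replicate 1). The median was 0.018 without HET replicate 2 and below 0 without any other library, at -0.0050 without WT replicate 1, -0.017 without WT replicate 2 and -0.019 without HET replicate 1. Acsl4 was at 23.7 and 21.7 scaled TPM in HET and 17.2 and 21.3 scaled TPM in WT. All 6 genes of mitochondrial fatty acid synthesis, a separate route that makes the lipoic acid precursor, had values below 0 (median -0.22), though 4 were above 0 without scaling of the TPM, and 2 without WT replicate 1. The lowest were H2-Ke6 (-0.31), Cbr4 (-0.30) and Mecr (-0.23, or 0.023 on unscaled TPM).

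**Figure D3:**
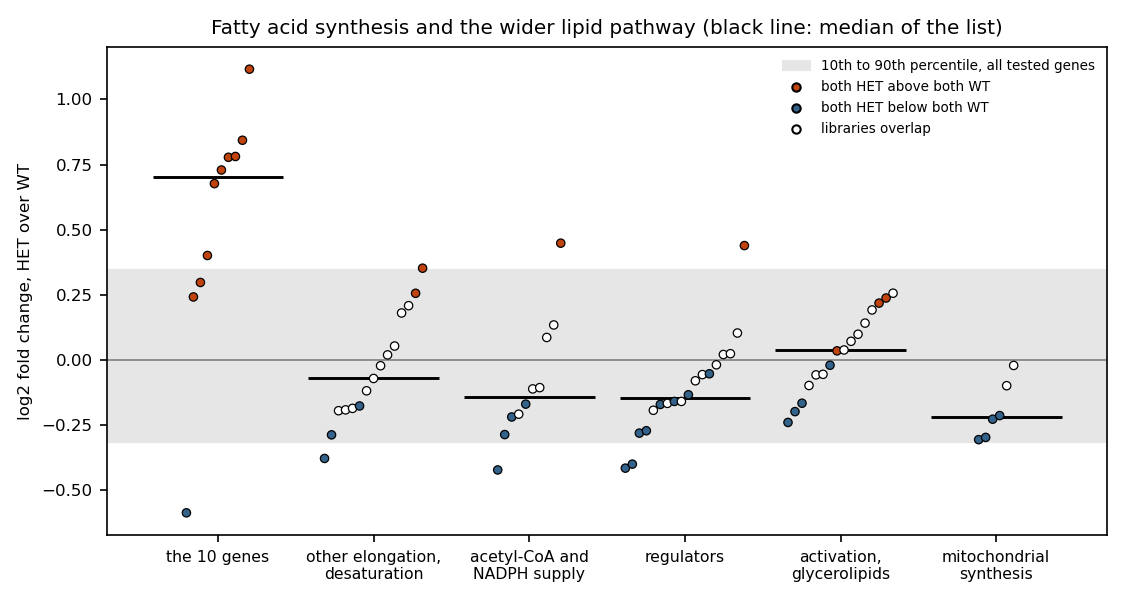
Log2 fold change, HET over WT, of each tested gene in 6 lists, coloured by whether the libraries of the genotypes overlap, with the list median as a black line and the 10th to 90th percentile of all tested genes (-0.31 to 0.35) in grey. Of the 10 genes 7 lie above the grey band, among them Fasn, which was chosen for its rise, and Me1 (-0.59) lies below it. Single genes of the other lists also leave the band, for example Me2 (0.45) and Insig1 (0.44) above it. Pcx (-0.42), Mlx (-0.41), Mlycd (-0.40) and Hacd2 (-0.38) lie below it. The medians of the other lists lie within it (-0.22 to 0.037).

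Markers of other cell types and of sex differed between the libraries as well. The 13 adipocyte markers summed to 403 and 760 scaled TPM in HET and 345 and 530 scaled TPM in WT, and none was at 0. Adipoq, the adiponectin gene, had 26.0 and 62.7 scaled TPM in HET and 22.6 and 40.8 scaled TPM in WT. Ucp1, the uncoupling protein gene of brown fat, ran the other way, with 11.1 and 8.70 scaled TPM in HET and 17.7 and 34.7 scaled TPM in WT. HET replicate 2 was highest for most of these markers and for Fasn, Acaca and Thrsp, and narrowly for Acacb and Acly. For Scd1, Scd2, Elovl6 and Srebf1 the highest library was HET replicate 1, and for Me1 it was WT replicate 1. HET replicate 1 had a lower adipocyte sum than WT replicate 2 (403 and 530 scaled TPM). In these libraries Fasn, chosen for being higher in HET, had 60.5 and 34.3 scaled TPM. Thrsp, not chosen that way, had 28.6 and 26.1 scaled TPM in the same order. The part of fat tissue in the levels of the 10 genes was not tested.

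The 7 macrophage markers summed to 207 and 204 scaled TPM in HET and 126 and 145 scaled TPM in WT, with 6 of 7 higher in both HET libraries, against 21.8% of all genes tested, and none at 0. Their part in the result was not tested. Genes known to be higher in male mouse kidney summed to 31923 and 47773 scaled TPM in HET and 93966 and 48032 scaled TPM in WT, with Kap, an androgen-regulated proximal tubule gene, making up most of it. Me1 followed the same order over the libraries as that sum (116 and 176 in HET, 252 and 183 in WT). Scd1 was lowest in WT replicate 1, where the sum was highest. So were Acaca, Acacb, Scd2, Elovl6, Thrsp and Fasn, the last chosen for being higher in HET. Acly and Srebf1 were lowest in WT replicate 2. Of all genes tested, 33.8% were lowest in WT replicate 1. Xist was at 60.5 and 57.7 scaled TPM in HET and 18.1 and 39.7 scaled TPM in WT. Ddx3y, which lies on the Y chromosome, had 4.02 and 17.0 scaled TPM in HET and 21.1 and 16.2 scaled TPM in WT. The pools thus differed in sex-linked transcripts, and the part of sex in these differences was not tested.

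**Figure D4:**
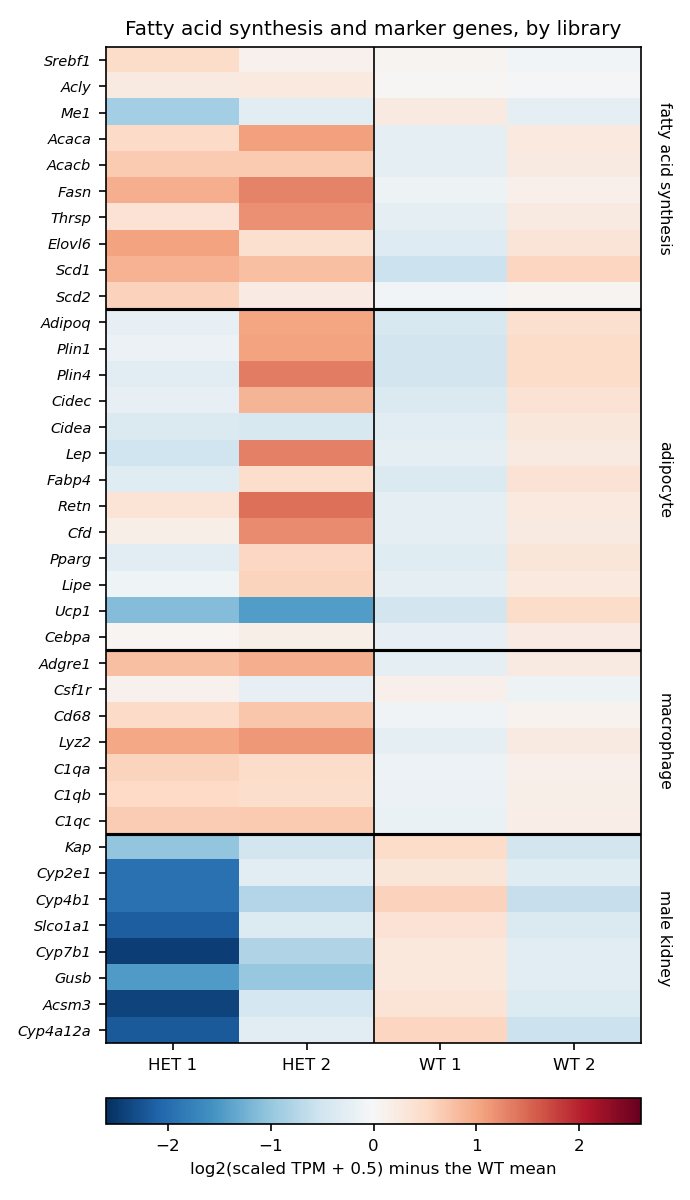
Each gene's log2(scaled TPM + 0.5) minus its WT mean in the 4 libraries, HET left of WT, for the 10 genes and for adipocyte, macrophage and male kidney markers. Most adipocyte markers are highest in HET replicate 2 (Adipoq 62.7 scaled TPM, against 26.0 in HET replicate 1 and 22.6 and 40.8 in WT). Fasn, which was chosen for its rise, is higher in both HET libraries than in both WT libraries.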

How the data were processed

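RNA sequencing was done on 4 libraries of adult kidney, 2 HET and 2 WT. The authors deposited TPM for 54232 genes and a table of their own comparison. Per the file headers, its columns are a mean normalized signal, a log2 fold change, the error of that change, a test score and a p-value, raw and adjusted. The submitters' processing notes name mm10, edgeR, DESeq and DESeq2. Alignments were marked unique, per the file headers. Aligner, counter and strand use stay unstated in the sources used here.

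Multiplied by exon length and divided by the value of 1 read, 100% of TPM above 0 were whole numbers of reads to within 0.001, and these recovered reads served for depth, filtering, scaling and limma-voom. TPM were divided by factors from 0.859 (WT replicate 1) to 1.13 (HET replicate 2), made from trimmed means of M values (TMM) of the reads. The filter asked for 15 reads over all libraries, and for 10 in 2 of them at median depth, and left 22356 genes. Tests used limma 3.58.1 (R 4.3.3) on log2(scaled TPM + 0.5), robust (statmod 1.5.0) and with a mean-variance trend, and Benjamini-Hochberg adjustment over all tested genes, called below 0.1. This scale understates the change of low genes. A single-gene permutation test cannot give a two-sided p below 0.333 here.

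The members, lists and tests were chosen with earlier results of these data known. Named were the 10 members, Tshz3, the 3 largest changes of each wider list, 8 fixed genes (Insig1 by both), and the 5 profiles closest to Fasn, leaving out clone names and pseudogenes. Markers and Elovl3 were named after their values were seen. Older symbols (Pcx, H2-Ke6) were matched through the reference tables. The 13 alternatives changed scaling, pseudocount, filter, test, moderation, the replicate block or left out a library.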

Additional observations from a re-analysis of the deposited data

How the results depend on the processing

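None of the 9 tested members was called under any of the 13 alternatives (0 of 9). Signs of 9 of the 10 genes say nothing of stability, since their libraries do not overlap and several settings leave the fold change as it is. The libraries of Me1 overlapped without scaling of the TPM, where its log2 fold change was -0.33. The median log2 fold change of the members lay between 0.38 (without WT replicate 1) and 0.95 (without WT replicate 2) when a library was left out. The log2 fold change of Fasn was 1.37 without scaling of the TPM. Over all genes limma called 2, against 0 without a filter on low genes, 5 with a stricter read filter, 0 with limma-voom, 1 without robust moderation and 0 to 97 when a library was left out (0 without WT replicate 1, 8 without WT replicate 2, 61 without HET replicate 1, 97 without HET replicate 2). In those fits a genotype with 1 library is assumed to vary like the other. The cause of these changes was not tested. With the replicate block 0 genes were called, and the members' median was 0.70 as before. The labels give no tie between same-numbered libraries beyond the number, and whether they were prepared together stays unstated. Their deviations from the group means had a correlation of 0.12.

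Among the wider genes, log2 fold changes near 0 changed sign. Without scaling of the TPM they were 0.015 for Agpat3, 0.023 for Mecr, 0.060 for Mlxipl, 0.14 for Slc25a1, 0.14 for Fads2 and 0.092 for Mid1ip1. With a library left out the range was -0.033 to 0.54 for Acsl1 (-0.030 without HET replicate 1), -0.46 to 0.067 for Mlxipl, -0.26 to 0.031 for Slc25a1, -0.053 to 0.16 for Elovl5 (-0.034 without WT replicate 1), -0.014 to 0.22 for Srebf2 and -0.43 to 0.11 for Mid1ip1. For the 10 genes the read numbers allow only counting error to be bounded, and 2 pools per genotype give the spread.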
